A study of Mus musculus with 12 samples.

Results

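The genes described here are 40 interferon-stimulated genes, a fixed list of antiviral effectors, RNA sensors, transcription factors, GTPases and related transcripts that interferons are known to induce. They were looked up by gene name on 12 Agilent arrays of mouse yolk sac RNA, each read in a Cy5 and a Cy3 channel. A probe was present for 39 of the 40 genes, with 62 probes in all, and Xaf1 had none under that name. In 29 of the 39 genes a probe passed the filter on dim signals and could be tested, out of 13896 genes tested in all.

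The study compared yolk sacs of embryos homozygous for the V1068G allele of Arid1a (Baf250a) with yolk sacs of wild-type embryos, all on a CD1 background. Arid1a encodes a DNA-binding subunit of the BAF chromatin remodelling complex. The groups were mutant E8.5, wild type E8.5, mutant E9.5 and wild type E9.5, with 3 biological replicates each, and no other agent or treatment was named. Neither litters nor pooling of yolk sacs are given in the labels. Yolk sac RNA carried Cy5, and on every array the Cy3 channel held 1 common reference, RNA of whole neonatal wild-type mice of mixed 129Sv and C57BL/6 background. Each value below is the log2 ratio of Cy5 over Cy3 on 1 array. A value of 0 means equal brightness in the yolk sac and in the neonatal reference after normalization. That step centres the spots of an array on 0 at each brightness, so 0 need not be equal raw brightness. A difference of 1 between groups is a doubling of the normalized ratio.

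Type I interferons bind a receptor made of Ifnar1 and Ifnar2, and interferon gamma binds one made of Ifngr1 and Ifngr2. The bound receptors activate JAK kinases and STAT proteins. Complexes that hold STAT2 and IRF9 bind the interferon-stimulated response element in the promoters of target genes, and the response to interferon gamma acts through another element, the gamma-activated site. The products of those genes bind or degrade viral RNA, hold back budding viruses, restrict intracellular pathogens and feed back on the pathway. Many are also kept at a low level in cells that have met no virus. The yolk sac of these stages holds visceral endoderm, mesoderm, endothelium, primitive erythroid cells and the first macrophages.

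Promoter sequences from RefSeq (GRCm38.p6) were searched for both elements named above. The members were listed as genes that interferons induce, so a high share with these elements was foreseeable. Windows of 250 bases before to 50 after a start site were available for 30 of the 40 members. The core of the interferon-stimulated response element, GAAA followed after any 2 bases by another GAAA, was searched on both strands, and overlapping matches were counted separately. It occurred in 18 of 30 members (60%), against 1079 of 27025 genes with such a window (3.99%). The letters TTCNNNGAA of the gamma-activated site, which read the same on both strands, occurred in 9 of 30 members (30%), against 9.55% of all genes. Of the 10 members that rose in the mutant at E9.5 (below), 6 had a window and 5 of these held the core (83.3%). It was found in 10 of the 16 members with a window that were tested and did not pass there (62.5%), and in 3 of the 8 that were not tested (37.5%). These shares rest on few genes, and a link between the core and the genotype difference was not tested. The 170 bases before the start site are printed here for those 5 genes, since their transcripts carry the difference between genotypes described below. Capitals mark every match to the core on either strand, and neighbouring matches run together where they overlap.
Isg15, chr4:156200819-156200988, minus strand: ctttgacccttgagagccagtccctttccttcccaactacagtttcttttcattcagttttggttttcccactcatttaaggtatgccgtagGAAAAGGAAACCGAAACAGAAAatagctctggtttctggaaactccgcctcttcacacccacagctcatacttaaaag
Oas1a, chr5:120907526-120907695, minus strand: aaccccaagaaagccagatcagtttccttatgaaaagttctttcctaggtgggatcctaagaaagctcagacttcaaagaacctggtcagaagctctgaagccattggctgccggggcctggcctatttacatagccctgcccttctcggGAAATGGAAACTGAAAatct
Ifit3, chr19:34583359-34583528, plus strand: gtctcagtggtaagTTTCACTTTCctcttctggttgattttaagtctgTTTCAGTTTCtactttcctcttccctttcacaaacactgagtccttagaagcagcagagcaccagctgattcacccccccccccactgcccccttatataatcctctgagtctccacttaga
Bst2, chr8:71537473-71537642, minus strand: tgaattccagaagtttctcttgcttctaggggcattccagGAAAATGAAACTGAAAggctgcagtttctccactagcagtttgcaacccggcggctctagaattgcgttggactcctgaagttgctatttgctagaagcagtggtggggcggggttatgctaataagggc
Igtp, chr11:58199386-58199555, plus strand: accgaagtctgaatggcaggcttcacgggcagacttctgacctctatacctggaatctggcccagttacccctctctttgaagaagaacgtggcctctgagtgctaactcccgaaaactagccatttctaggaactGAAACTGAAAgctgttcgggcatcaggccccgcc

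Isg15 held 3 overlapping matches that begin 78, 72 and 66 bases before the start site. Oas1a held 2 that begin 20 and 14 bases before it, and Bst2 held 2 that begin 130 and 124 bases before it. In Ifit3 both matches lay on the opposite strand, 156 and 122 bases before the start, and Igtp held 1 match 34 bases before it. For Ifit3 and Oas1a the annotated gene begins upstream of the start site used here. Their matches therefore lie wholly or mostly inside the annotated gene. The window of Oasl2 held no match, and Rtp4, Usp18, Parp14 and Ifi27l2b had no window in the table. A match is a run of letters and not a measured binding site.

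Between 46.7% and 50.1% of probes were well above background in Cy5 on an array, and replicates of a group correlated with r of 0.985 to 0.994 over the genes tested. The Arid1a probe read 0.02 ± 0.10 in mutant E8.5 and -0.03 ± 0.08 in wild type E8.5, and -0.19 ± 0.07 in mutant E9.5 and -0.35 ± 0.03 in wild type E9.5 (mean ± SD, n = 3 each). Neither genotype difference passed (adjusted p = 0.823 at E8.5 and 0.3 at E9.5). The allele is a point mutation, so the level of the transcript does not check the labels. Each replicate number was scanned together, and every scan held 1 array of each group. The position on a slide was fixed by the group, so slide position and group cannot be told apart. Wild type E8.5 replicate 2 stood apart in the heart gene Myl7, at 0.01 where the other 11 arrays ran from -3.14 to -1.47. Replicate 3 of mutant E8.5, of mutant E9.5 and of wild type E9.5 stood apart in the placental hormone gene Prl4a1. It read 5.70, 3.74 and 4.31 there, where the other 9 arrays ran from 0.26 to 1.53. Throughout, errors written ± after a difference are standard errors of a limma fit over all 12 arrays. A gene is said to have risen or fallen only where its p-value, adjusted by Benjamini-Hochberg over all 13896 genes, was under 0.05.

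Most members were dim in yolk sac RNA, and more of them were measurable at E9.5 than at E8.5. Counting members with Cy5 well above background on each of a group's 3 arrays gave 23 in mutant E8.5, 18 in wild type E8.5, 29 in mutant E9.5 and 25 in wild type E9.5. On all 12 arrays 18 members were above background, and on no array 8 were: the synthetases Oas2, Oas3 and Oasl1, the RNA-binding Ifit2, the antiviral GTPase Mx1, the transcription factor Irf7, the chemokine Cxcl10 and Ifi44. The Cy3 reference was above background on all 12 arrays for 36 members. Gbp2, a guanylate-binding GTPase, and Dhx58, the RNA sensor LGP2, were above background on some arrays without filling a group. Dhx58 was seen on 1 of 3 arrays in mutant E8.5, on none in wild type E8.5, on 2 of 3 in mutant E9.5 and on none in wild type E9.5.

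**Figure D1:**
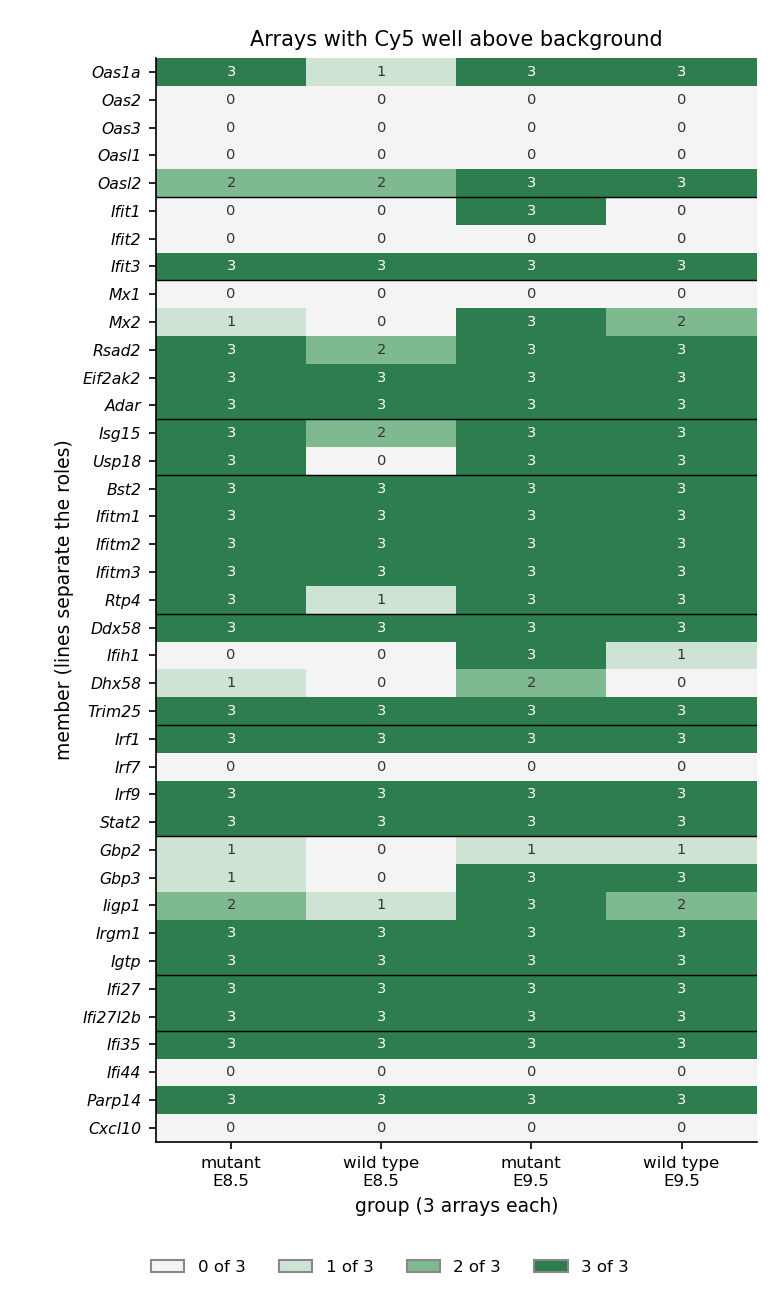
Rows are the 39 members with a probe, ordered by role, and columns are the 4 groups; each cell gives the number of arrays, of 3, on which Cy5 was well above background. Mutant E9.5 is the group with the most filled cells, with 29 members on 3 of 3 arrays, and 8 rows are at 0 throughout.

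Of the tested members 4, Ifit1, Mx2, Ifih1 and Iigp1, passed the filter only through mutant E9.5. For these a higher value in that group was part of the reason they were tested. Ifit1, which binds viral RNA lacking a host cap, was above background on 3 of 3 arrays in mutant E9.5 and on none in wild type E9.5, mutant E8.5 or wild type E8.5. Its difference at E9.5 did not pass (0.24 ± 0.07, adjusted p = 0.114). The size of that difference is uncertain, since wild type E9.5 was not measured above background.

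At E9.5, 10 of the 29 tested members rose in the mutant and none fell: Ifi27l2b, Rtp4, Oasl2, Bst2, Isg15, Usp18, Parp14, Oas1a, Igtp and Ifit3. Over all genes tested, 0.914% rose and 1.08% fell. The differences ran between 0.38 and 0.73 on the log2 scale, that is 1.3-fold to 1.66-fold. None of these 10 is among the members that passed the filter only through mutant E9.5, and each was above background on all 6 arrays of E9.5. Among the 18 members above background on all 12 arrays, 5 rose (Bst2, Ifi27l2b, Ifit3, Igtp and Parp14) and none fell, against 0.86% of genes that rose among those above background on all 12 arrays. In each of the 10 the mutant and wild-type arrays did not overlap, which held in this direction for 8.02% of all genes tested. Each was thus also higher in the mutant within all 3 scans. The 10 were picked by their p-values on these same arrays, so this separation adds no support. In whole-tissue RNA, a larger number of cells that express a gene and more RNA per cell cannot be told apart.

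The ubiquitin-like modifier Isg15 and Usp18, the protease that removes it from its targets, both rose. Isg15 read -0.21, 0.08 and -0.06 on the mutant E9.5 arrays and -0.53, -0.50 and -0.65 on the wild type E9.5 arrays. The mutant arrays lay near the level of the neonatal reference, and every wild-type array lay below all of them. The difference was 0.49 ± 0.08 (1.4-fold, adjusted p = 0.00446), and on the 3 scans it was 0.31, 0.58 and 0.58. Usp18 read 0.00, 0.09 and 0.21 in mutant E9.5 and -0.27, -0.42 and -0.29 in wild type E9.5, a difference of 0.43 ± 0.06 (adjusted p = 0.0025). Usp18 also blocks the type I receptor from inside the cell, and no mutant array overlapped a wild-type one.

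Of the oligoadenylate synthetase family, both members that could be tested rose and the other 3 were above background on no array. Oas1a makes the small messenger that activates RNase L. It read -0.09, -0.14 and -0.04 in mutant E9.5 and -0.56, -0.44 and -0.50 in wild type E9.5, so that the groups were separated by more than either group's own range. The difference was 0.41 ± 0.06 (1.33-fold, adjusted p = 0.00123). Oasl2, a synthetase-like protein, read -0.59, -0.45 and -0.36 in mutant E9.5 and -0.99, -0.98 and -1.09 in wild type E9.5, a difference of 0.56 ± 0.09 (1.47-fold, adjusted p = 0.00374).

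In the IFIT family, whose proteins bind foreign RNA, Ifit3 rose. It read -0.70, -0.45 and -0.40 in mutant E9.5 and -0.88, -0.91 and -0.90 in wild type E9.5. The mutant array of replicate 1 was the one nearest to the wild-type arrays. The difference was 0.38 ± 0.07 (1.3-fold, adjusted p = 0.00803), and a second, dim Ifit3 probe that did not pass the filter read 0.11 in the same direction. Ifit2 was above background on no array.

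Among the 5 membrane proteins, Bst2 and Rtp4 rose and the 3 Ifitm genes did not pass. Bst2 (tetherin) holds budding virus particles at the cell surface, and read 0.44, 0.43 and 0.29 in mutant E9.5 and -0.13, -0.17 and -0.20 in wild type E9.5. It was brighter than the neonatal reference on every mutant E9.5 array and dimmer than it on every wild-type one, with a difference of 0.55 ± 0.09 (1.47-fold, adjusted p = 0.00575). Rtp4, a receptor transporter protein, read -0.73, -0.72 and -0.74 in mutant E9.5 and -1.18, -1.52 and -1.54 in wild type E9.5. Its mutant arrays lay close together and above every wild-type array, and the difference was 0.68 ± 0.10 (1.61-fold, adjusted p = 0.00132). For Ifitm1, Ifitm2 and Ifitm3, which hinder the entry of enveloped viruses, the differences were -0.01, 0.03 and 0.28, with 95% intervals from -0.21 to 0.20, from -0.14 to 0.21 and from 0.10 to 0.46 before any adjustment (adjusted p = 0.993, 0.935 and 0.128).

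Ifi27l2b, of the ISG12 family of small hydrophobic proteins, was above background on all 12 arrays. It read 0.52, 0.57 and 0.60 in mutant E9.5 and -0.39, 0.05 and -0.18 in wild type E9.5, a difference of 0.73 ± 0.10 (1.66-fold, adjusted p = 0.00127). Wild-type replicate 2 was the highest of its group and still lay below every mutant array. With the offset of 50 this was the largest difference of the 29 members, whereas with the processed signals described below 10 other members had a larger one. Ifi27, of the same family, read between -3.65 and -3.47 in mutant E9.5 and between -3.77 and -3.45 in wild type E9.5, and did not pass (0.08 ± 0.10, adjusted p = 0.861). A second kept Ifi27 probe, dimmer but above background on all 12 arrays, differed by 0.20 at E9.5. A pair of further probes that the array names Ifi27 carry the accession of Ifi27l2a and were counted there. Ifi27l2a did not pass either (0.13 ± 0.09, adjusted p = 0.674).

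Igtp and Parp14 rose as well, with calls that depended on single arrays. Igtp, an immunity-related GTPase that acts on vacuoles of intracellular pathogens, read -0.51, -0.55 and -0.58 in mutant E9.5 and -0.81, -1.02 and -1.02 in wild type E9.5, a difference of 0.41 ± 0.08 (adjusted p = 0.0192). Parp14, an ADP-ribosyltransferase, read -1.15, -0.80 and -1.02 in mutant E9.5 and -1.25, -1.35 and -1.61 in wild type E9.5, a difference of 0.42 ± 0.09 (adjusted p = 0.0333). Parp14 mutant replicate 1 was only 0.11 above the wild-type array of the same scan. Further Parp14 probes, dim and not past the filter, showed almost no difference at E9.5 (0.03 and 0.00). Leaving out 1 of the 6 arrays of E9.5 in turn ended the call in 4 of 6 cases for Igtp (adjusted p between 0.0186 and 0.0937) and in 4 of 6 for Parp14 (between 0.0219 and 0.159). For Igtp these were wild-type replicates 2 and 3 and mutant replicates 1 and 2, and for Parp14 wild-type replicates 2 and 3 and mutant replicates 2 and 3. The Igtp call was also lost with an offset of 10, and the Parp14 call with no filter and with only the arrays compared. The other 8 members kept their call whichever array was left out.

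**Figure D2:**
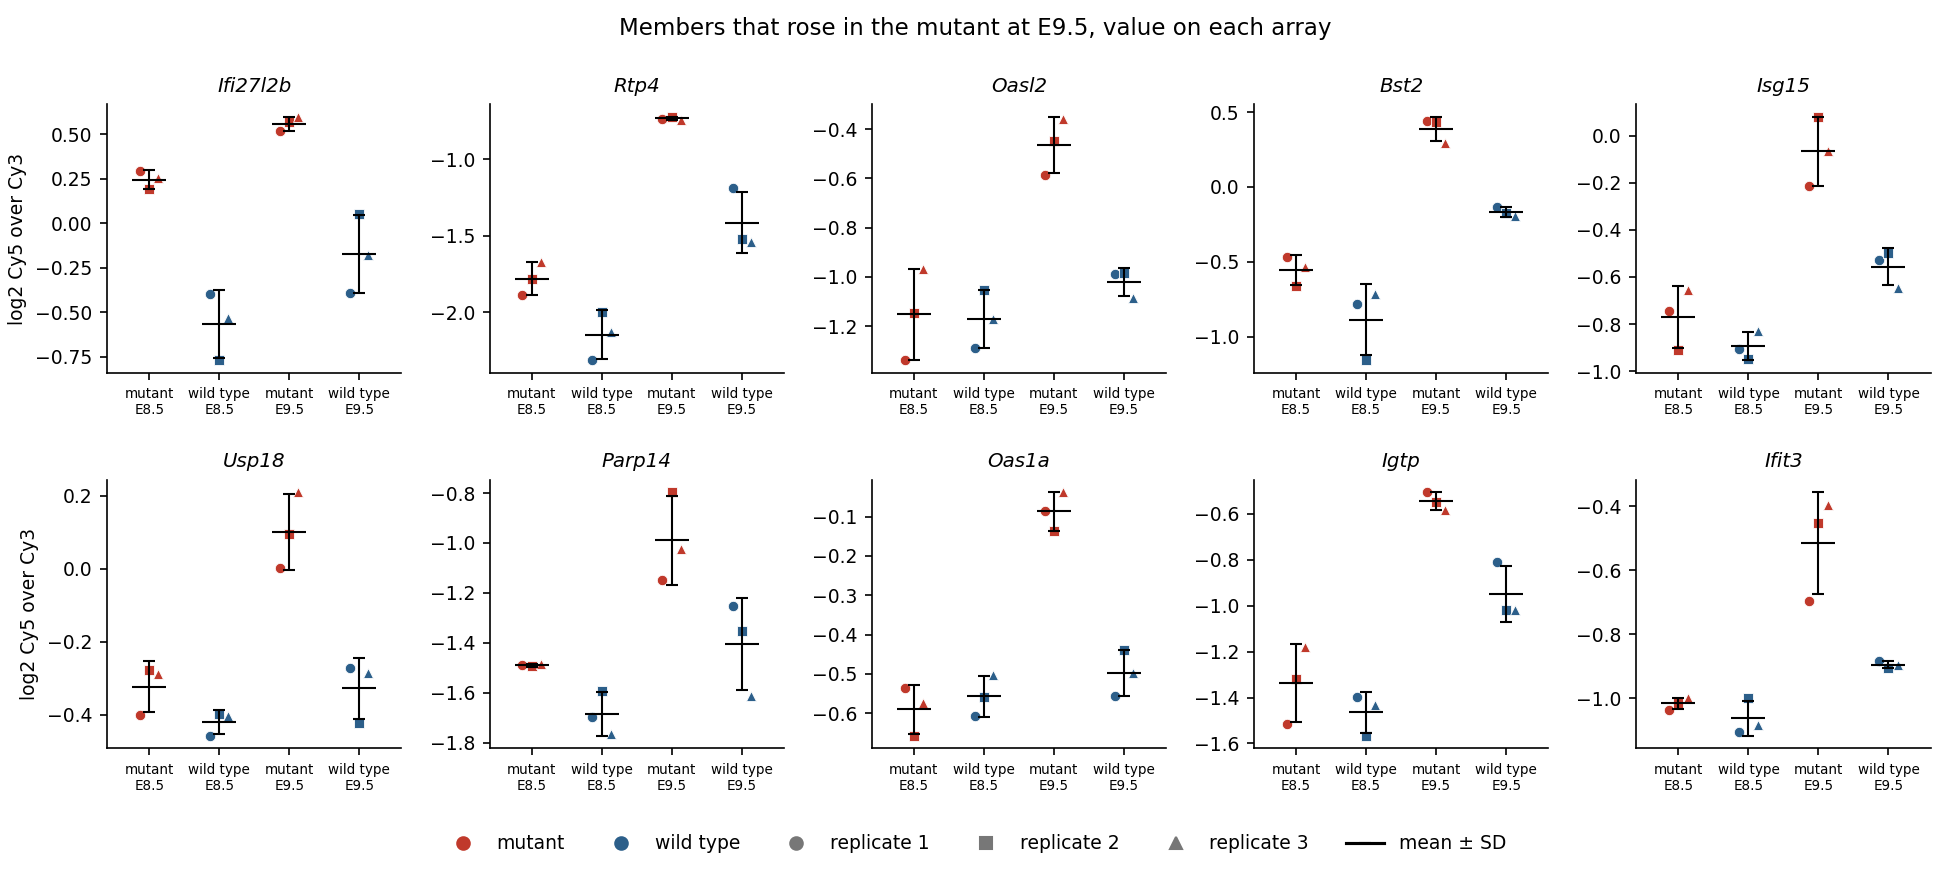
Each panel is 1 of the 10 members that rose in the mutant at E9.5, with the log2 Cy5 over Cy3 ratio of every array by group, symbols for the replicates, and the mean with SD (n = 3) in black; the vertical scales differ between panels. In all 10 panels the mutant E9.5 points lie above all wild type E9.5 points, and in Ifi27l2b the E8.5 groups are apart as well.

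The other 19 tested members did not pass at E9.5. Their differences ran from -0.12 (Irf1) to 0.36 (Gbp3), and of the 15 that did not pass the filter through mutant E9.5 alone, 12 were above 0, against 50.1% of all genes tested. The transcription factors Irf1, Irf9 and Stat2, the last 2 of which are part of the complex that binds the response element, differed by -0.12, 0.19 and 0.07. The RNA sensors Ddx58 (RIG-I) and Ifih1 (MDA5) and the ligase Trim25, which acts on RIG-I, differed by 0.14, 0.23 and -0.06. Rsad2 (viperin), the RNA-editing enzyme Adar and the kinase Eif2ak2 (PKR) differed by 0.09, 0.03 and 0.15. Further kept probes differed by -0.07 and 0.11 for Ddx58, 0.08 for Trim25, 0.06 for Rsad2 and 0.02 for Adar. The smallest adjusted p among the 19 was that of Gbp3, a guanylate-binding GTPase (0.36 ± 0.09, adjusted p = 0.0677). Without the 4 members that passed the filter only through mutant E9.5, the median difference of the other 25 was 0.19, beside a median of 0.00 over all genes tested.

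The sizes depend on how the dim signal is handled. The offset of 50 added after background correction draws ratios of dim spots towards 0. With the authors' processed signals, which carry no such offset, the E9.5 differences were 1.07 for Isg15, 1.33 for Oas1a, 1.41 for Oasl2, 1.14 for Rtp4 and 1.3 for Usp18, and 0.63 for Bst2 and 0.86 for Ifi27l2b. With them 5 of the 10 were called: Bst2, Ifi27l2b, Ifit3, Oas1a and Usp18. Ifit1 was called too (adjusted p = 0.0286), but it was tested only through mutant E9.5 and was above background on no wild type E9.5 array. The calls of Isg15 (adjusted p = 0.0503), Parp14 (0.0687), Rtp4 (0.165), Igtp (0.232) and Oasl2 (0.246) were not made. Without loess, with the ratios only centred on each array's median, none of the 10 was called, at differences of 0.34 to 0.71 and adjusted p of 0.0692 to 0.607, and 26 of all genes were.

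At E8.5, 1 of the 29 tested members rose in the mutant and none fell, where 0.712% of all genes tested rose. That member was Ifi27l2b, which read 0.29, 0.19 and 0.25 in mutant E8.5 and -0.40, -0.77 and -0.53 in wild type E8.5. The groups were far apart for their spread, with a difference of 0.81 ± 0.10 (1.76-fold, adjusted p = 0.000896), and it was 0.69, 0.96 and 0.78 on the 3 scans. With median centring it was 0.73 and did not pass (adjusted p = 0.179). The other 28 members ran from -0.21 (Irf1) to 0.37 (Rtp4), and of the 24 that did not pass the filter through mutant E9.5 alone, 17 were above 0, against 50.8% of all genes tested. In 5 of the 29 members the mutant arrays lay above all wild-type arrays, against 9.66% of all genes. Without wild type E8.5 replicate 2, Rtp4 also rose (0.44, adjusted p = 0.0427) and Irf1 fell (-0.29, adjusted p = 0.0324). The count of members above 0 depended on the normalization. Over all 29 tested members it was 22 in the main fit and 12 with median centring. With median centring the median of the members was -0.03, beside -0.09 over all genes.

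The other 9 members that rose at E9.5 did not pass at E8.5, with adjusted p from 0.0834 to 0.97. Rtp4 read -1.89, -1.78 and -1.67 in mutant E8.5 and -2.32, -2.0 and -2.13 in wild type E8.5 (0.37 ± 0.10, adjusted p = 0.0834). Only 1 of the 3 wild-type arrays measured Rtp4 above background at this stage. With the processed signals its difference was 2.17 (adjusted p = 0.0148), and Parp14 also passed with them (1.03, adjusted p = 0.015). Bst2 read -0.47, -0.66 and -0.53 in mutant E8.5 and -0.78, -1.16 and -0.72 in wild type E8.5, and its groups did not overlap either (0.33 ± 0.09, adjusted p = 0.114). Parp14 read -1.49, -1.49 and -1.48 in mutant E8.5 and -1.70, -1.59 and -1.77 in wild type E8.5 (0.20 ± 0.09, adjusted p = 0.421).

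For the remaining 6 the groups overlapped at E8.5. Isg15 read -0.75, -0.91 and -0.65 in mutant E8.5 and -0.91, -0.95 and -0.83 in wild type E8.5 (0.12 ± 0.08). Igtp read -1.51, -1.32 and -1.18 in mutant E8.5 and -1.40, -1.57 and -1.43 in wild type E8.5 (0.13 ± 0.08). Usp18 read -0.40, -0.28 and -0.29 in mutant E8.5 and -0.46, -0.40 and -0.40 in wild type E8.5 (0.10 ± 0.06). No wild type E8.5 array measured Usp18 above background, so the size of its difference is uncertain. The measured mean brightness in mutant E8.5 was 1.12-fold that in wild type E8.5, which is not a lower bound. The difference in log2 ratio did not pass (adjusted p = 0.608). The Usp18 difference was 1.05 with the processed signals (adjusted p = 0.0533) and passed with the authors' deposited table (adjusted p = 0.0487). The oligoadenylate synthetases and Ifit3 had differences closer to 0. Oas1a read -0.54, -0.66 and -0.57 in mutant E8.5 and -0.61, -0.56 and -0.50 in wild type E8.5 (-0.03 ± 0.06). Oasl2 read -1.34, -1.15 and -0.97 in mutant E8.5 and -1.29, -1.05 and -1.17 in wild type E8.5 (0.02 ± 0.09). Ifit3 read -1.04, -1.01 and -1.0 in mutant E8.5 and -1.11, -1.0 and -1.08 in wild type E8.5 (0.05 ± 0.07).

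**Figure D3:**
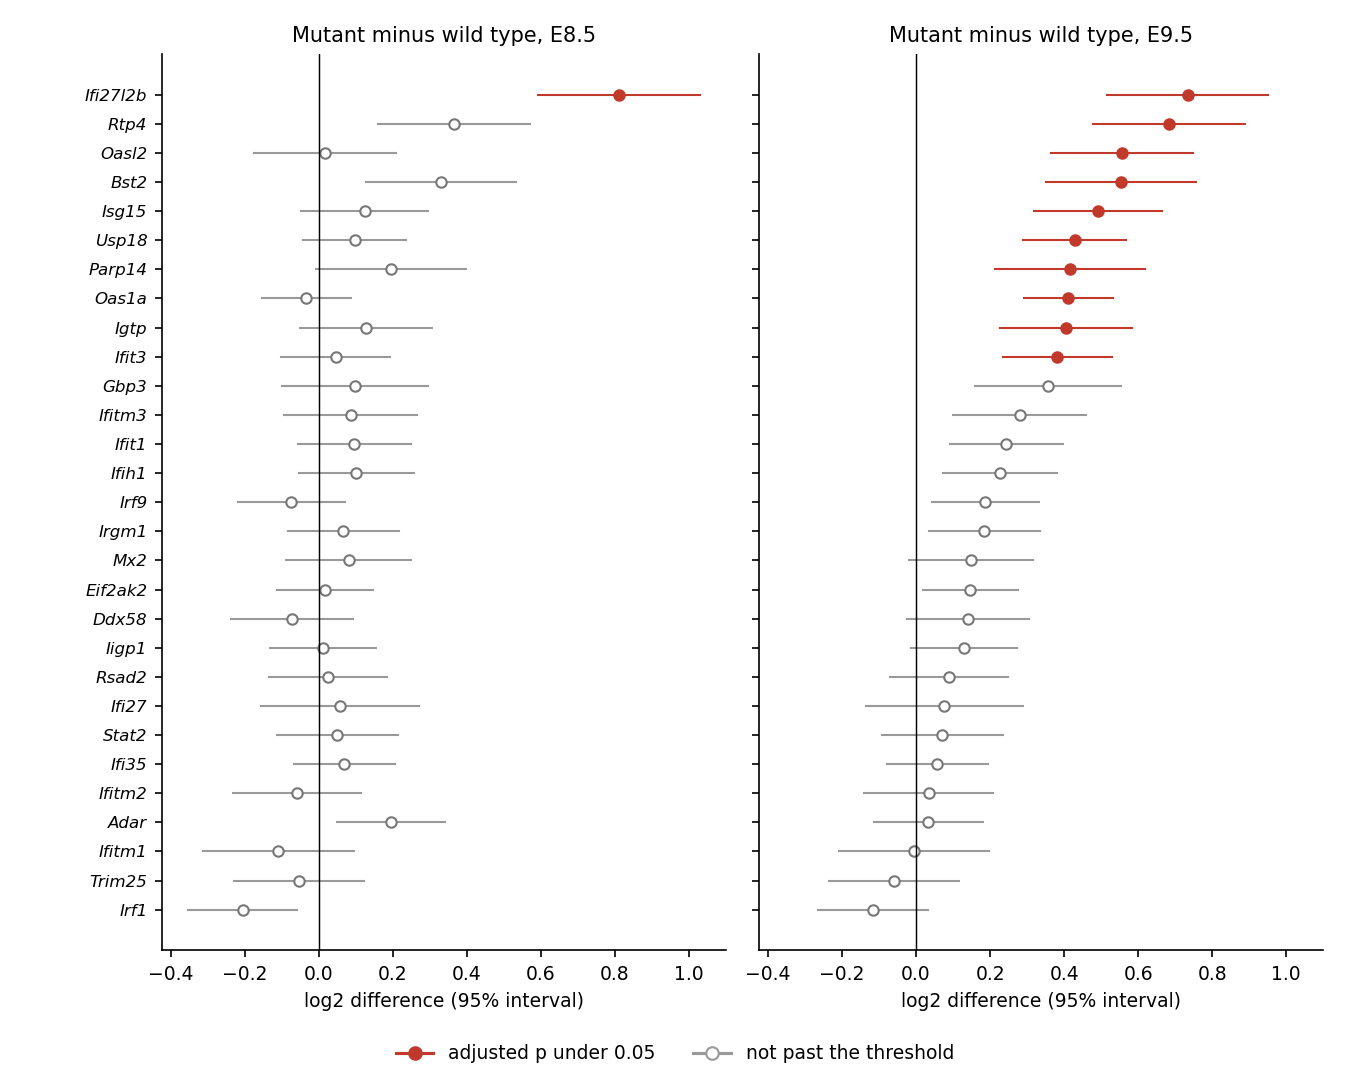
Points are the log2 differences, mutant minus wild type, of the 29 tested members at E8.5 and at E9.5, with 95% intervals of the fit before adjustment over genes; filled red points passed an adjusted p of 0.05. In the E8.5 panel Ifi27l2b is the filled point, and in the E9.5 panel the 10 members from Ifi27l2b down to Ifit3 are filled.

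Whether the genotype difference itself changed between the stages was tested as an interaction, the E9.5 difference minus the E8.5 one. None of the 29 members passed it, and none of the 13896 genes did with limma; at an unadjusted p under 0.05 there were 8 members and 795 of all genes (5.72%). The members with a call at E9.5 and none at E8.5 are therefore not shown to differ between the stages in their response to genotype. Oas1a had the smallest adjusted p of the members (0.44 ± 0.08, adjusted p = 0.162), followed by Oasl2 (0.54 ± 0.13, adjusted p = 0.323). Ifi27l2b, which was called at both stages, had an interaction of -0.08 ± 0.14 (95% interval from -0.39 to 0.23). The interaction of Rtp4 was 0.32 ± 0.14 (unadjusted p = 0.0344) and turned to -1.03 with the processed signals (adjusted p = 0.844 and 0.826).

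Between stages, 21 of the 29 tested members rose in the mutant between E8.5 and E9.5 and none fell, where 11% of all genes tested rose and 10.6% fell. In the wild type 12 of 29 rose and none fell, where 12.8% of all genes rose and 11% fell. Without the 4 members that passed the filter only through mutant E9.5, 20 of 25 rose in the mutant and 12 of 25 in the wild type. Of the 18 members above background on all 12 arrays, 13 rose in the mutant, against 11.3% of the genes above background throughout, and 9 rose in the wild type, against 13.5%. The 12 members that rose in the wild type all rose in the mutant too, and 9 passed in the mutant alone, a difference that the interaction above did not call. All 10 members that rose with genotype at E9.5 are among the 21. The mutant and wild-type E9.5 arrays enter both the genotype and the stage comparisons, so these are not independent counts.

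With the offset of 50 the largest stage differences were those of Rtp4, 1.05 ± 0.10 in the mutant (adjusted p = 5.55e-06) and 0.73 ± 0.10 in the wild type (adjusted p = 0.00011). Bst2 differed by 0.94 ± 0.09 in the mutant (adjusted p = 1.18e-05) and 0.72 ± 0.09 in the wild type (adjusted p = 0.000112). With the processed signals Bst2 differed by 1.01 in the mutant and by 0.78 in the wild type, and 14 members, Rsad2 among them, had a larger difference than Bst2 in each genotype. Rtp4 then differed by 2.11 in the mutant, where 3 members had a larger difference, and by 3.14 in the wild type. Igtp differed by 0.79 ± 0.08 in the mutant and by 0.51 ± 0.08 in the wild type, and Isg15 by 0.70 ± 0.08 in the mutant and by 0.34 ± 0.08 in the wild type. The values of these 4 genes at each stage are those given above, and in each genotype the E9.5 arrays lay above the E8.5 arrays without overlap.

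Ddx58 and Rsad2 rose with stage in both genotypes and passed in neither genotype comparison. Ddx58, the RNA sensor RIG-I, read 1.06, 0.84 and 0.87 in mutant E9.5 and 0.31, 0.27 and 0.32 in mutant E8.5 (0.62 ± 0.08, adjusted p = 7.56e-05). In the wild type it read 0.79, 0.88 and 0.69 at E9.5 and 0.52, 0.31 and 0.28 at E8.5 (0.41 ± 0.08, adjusted p = 0.00163). Rsad2, the antiviral enzyme viperin, read -1.67, -1.46 and -1.50 in mutant E9.5 and -2.16, -2.04 and -2.22 in mutant E8.5 (0.60 ± 0.07, adjusted p = 7.6e-05). In the wild type it read -1.54, -1.57 and -1.77 at E9.5 and -2.17, -2.12 and -2.21 at E8.5 (0.54 ± 0.07, adjusted p = 0.000183). For both genes the mutant and wild-type arrays of E9.5 overlapped.

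Some members that rose with genotype at E9.5 did not pass between stages in the wild type. Oas1a differed by 0.50 ± 0.06 in the mutant (adjusted p = 3e-05) and by 0.06 ± 0.06 in the wild type (adjusted p = 0.491). Oasl2 differed by 0.69 ± 0.09 in the mutant (adjusted p = 0.000115) and by 0.15 ± 0.09 in the wild type (adjusted p = 0.252). Ifit3 and Usp18 differed by 0.50 and 0.42 in the mutant and by 0.17 and 0.09 in the wild type, where neither passed. These wild-type values depend on the offset, since wild type E8.5 measured Oas1a above background on 1 of 3 arrays and Usp18 on none. With the processed signals they were 0.84 for Oas1a (adjusted p = 0.0215), 1.17 for Usp18 (adjusted p = 0.00508), 0.62 for Ifit3 (adjusted p = 0.00425) and 1.09 for Oasl2 (adjusted p = 0.133), so that Oasl2 was the one of the 4 that did not pass. Ifi27l2b differed by 0.32 ± 0.10 in the mutant and by 0.39 ± 0.10 in the wild type, where its call was lost without wild type E9.5 replicate 2 (adjusted p = 0.0548). Parp14 differed by 0.50 ± 0.09 in the mutant and by 0.28 ± 0.09 in the wild type (adjusted p = 0.0446), and leaving out any of 4 wild-type arrays ended the wild-type call, replicates 1 and 2 of E9.5 and replicates 1 and 3 of E8.5 (adjusted p up to 0.189). The transcription factors Irf1 and Irf9 rose in both genotypes, Irf9 by 0.47 ± 0.07 in the mutant and by 0.21 ± 0.07 in the wild type. With median centring neither passed in the wild type (adjusted p = 0.0676 and 0.094). Among the 8 members that did not pass in the mutant were Ifi27, Ifitm1, Ifitm2, Trim25, Adar and Iigp1, with differences between -0.01 and 0.21 over the 8.

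**Figure D4:**
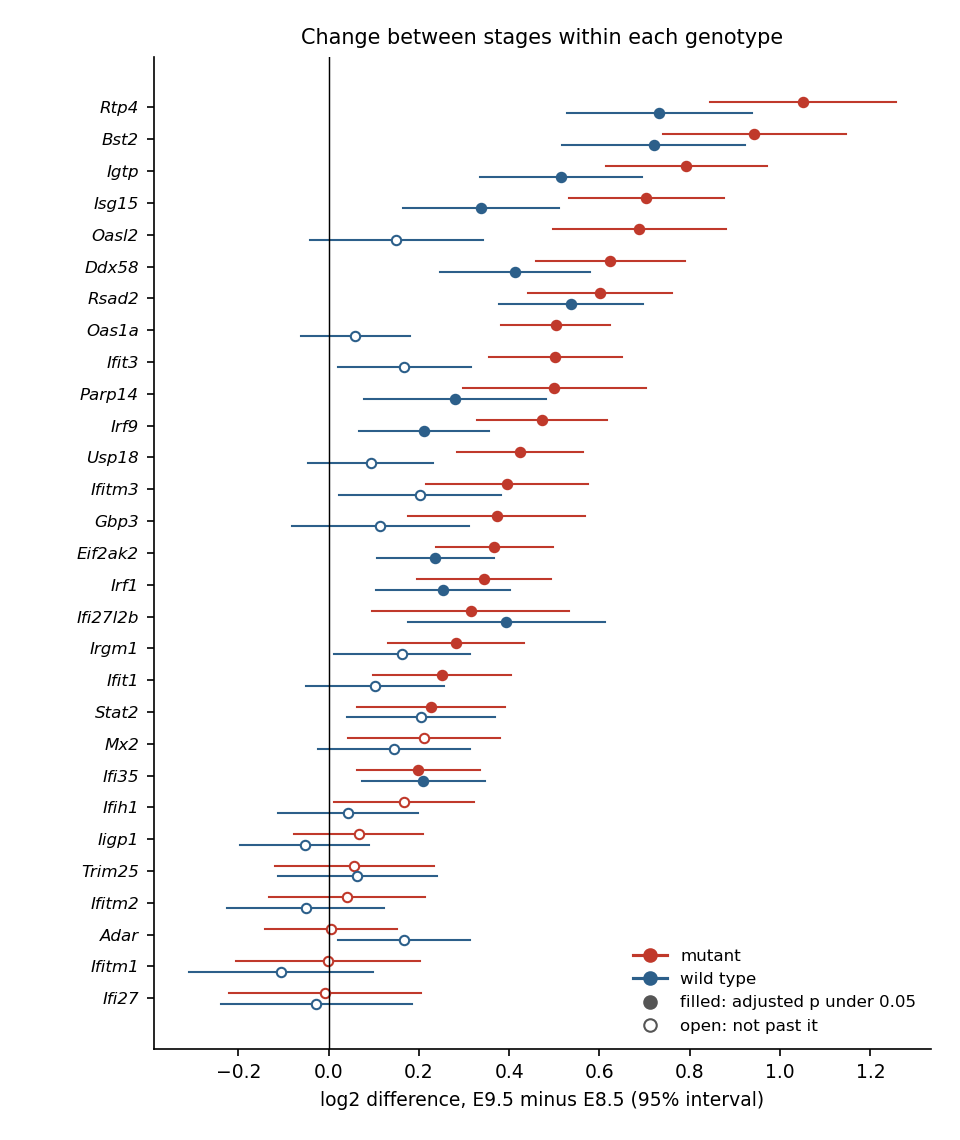
Points are log2 differences, E9.5 minus E8.5, of the 29 tested members in the mutant (red, upper of each pair) and in the wild type (blue, lower), with 95% intervals of the fit; filled points passed an adjusted p of 0.05. On this scale, which holds the offset of 50, Rtp4 and Bst2 stand at the top in both genotypes, and Oasl2, Oas1a and Usp18 are filled in the mutant only.

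The rest of the pathway was looked up from a list of 47 genes of interferon production, reception and signalling, 30 of which could be tested. Transcripts of the interferons themselves were not detectable: 11 of the 12 with a probe were above background on no array, Ifnb1, Ifng and the Ifna genes among them. The exception, Ifnz, did not pass (-0.08 ± 0.08 at E9.5, adjusted p = 0.785). None of the 4 further IRF genes tested, of the 9 sensing and adaptor genes tested or of the 5 inhibitors passed in either genotype comparison. Between stages, Socs1, an inhibitor of JAK kinases that interferons induce, rose by 0.63 ± 0.08 in both genotypes (adjusted p = 5.97e-05 in the mutant and 6.01e-05 in the wild type).

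Of the 6 receptor chain genes tested, 3 fell in the mutant at E9.5 and none rose, where 1.08% of all genes fell, and at E8.5 1 fell, where 0.727% did. Ifnar1, Ifngr1 and Ifnlr1 passed at neither stage. Il10rb, the chain shared by the receptors of interferon lambda and interleukin 10, read -1.42, -1.31 and -1.57 in mutant E9.5 and -0.73, -0.85 and -0.82 in wild type E9.5. These groups were far apart, and the difference was -0.63 ± 0.07 (adjusted p = 0.000242). At E8.5 it read -1.84, -1.91 and -1.82 in mutant and -1.41, -1.57 and -1.44 in wild type (-0.38 ± 0.07, adjusted p = 0.0126). That E8.5 call was lost in 3 of 6 cases when 1 array was left out (adjusted p up to 0.0703), and the E9.5 call in none. With median centring Il10rb was called at neither stage (-0.74 at E9.5, adjusted p = 0.0848, and -0.51 at E8.5, adjusted p = 0.329).

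Ifngr2, the signalling chain of the interferon gamma receptor, read -1.53, -1.32 and -1.41 in mutant E9.5 and -1.14, -1.0 and -1.03 in wild type E9.5 (-0.36 ± 0.07, adjusted p = 0.0133). Ifnar2, the high-affinity chain of the type I receptor, read -0.80, -0.88 and -0.89 in mutant E9.5 and -0.63, -0.60 and -0.63 in wild type E9.5 (-0.24 ± 0.05, adjusted p = 0.024). The groups did not overlap in either gene. The Ifnar2 call was lost in 5 of 6 cases when 1 array was left out (adjusted p from 0.0314 to 0.0974), with the processed signals (adjusted p = 0.0503), with median centring (adjusted p = 0.534) and with only the arrays compared (adjusted p = 0.0698). The Ifngr2 call was lost in 2 of 6, without wild type E9.5 replicate 2 and without mutant E9.5 replicate 1 (adjusted p = 0.0713 and 0.061), and with median centring (-0.44, adjusted p = 0.0741). Ifnar1, the other type I chain, differed by 0.02 ± 0.06 (adjusted p = 0.942). In RefSeq these 4 genes lie in the order Ifnar2, Il10rb, Ifnar1 and Ifngr2 on chromosome 16, with no other protein-coding gene between them.

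Between stages, 4 of the 6 chains rose in the wild type and none fell, where 12.8% of all genes rose. Ifnar2, Ifngr2 and Il10rb rose by 0.37 ± 0.05, 0.32 ± 0.07 and 0.67 ± 0.07. Ifnlr1, which passed in neither genotype comparison, rose from a wild-type mean of -0.36 at E8.5 to -0.13 at E9.5. In the mutant Ifnar2, Ifngr2 and Il10rb differed by 0.06 ± 0.05, 0.11 ± 0.07 and 0.42 ± 0.07. Of the 6 chains Il10rb alone rose there (adjusted p = 0.000696), where 11% of all genes rose. The interaction passed for none of the 6 chains.

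**Figure D5:**
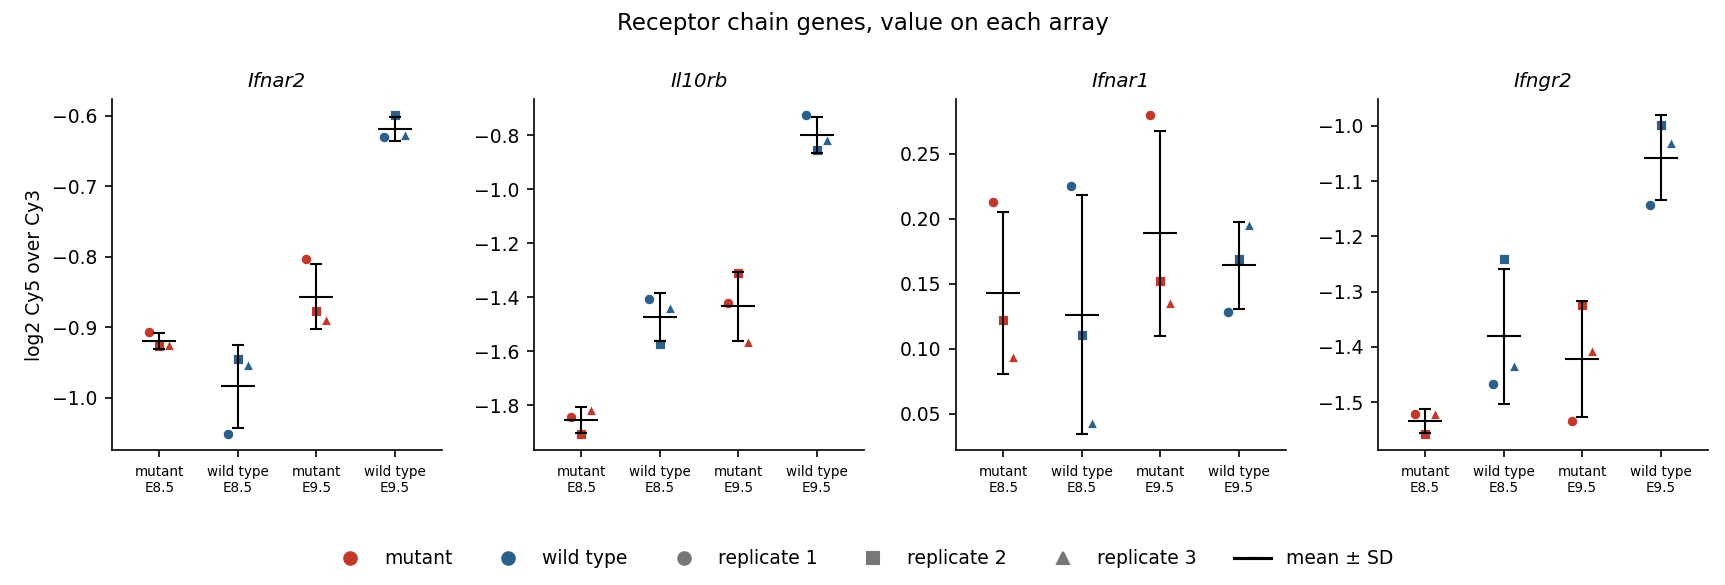
Each panel is 1 receptor chain gene of the chromosome 16 group, in its order there, with the log2 Cy5 over Cy3 ratio of every array by group, symbols for replicates, and the mean with SD (n = 3) in black; the vertical scales differ. Mutant E9.5 lies below wild type E9.5 in Ifnar2, Il10rb and Ifngr2, and the groups overlap in Ifnar1.

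Of 55 further interferon-stimulated genes on a second list, 26 could be tested and 17 were above background on no array. At E9.5 Trim30a alone rose (0.27 ± 0.06, adjusted p = 0.0302) and none fell, and at E8.5 Zc3hav1 alone rose (0.35 ± 0.06, adjusted p = 0.0122) and none fell. Over all genes tested 0.914% rose at E9.5 and 0.712% at E8.5. Trim30a, which restrains Toll-like receptor signalling in the mouse, read -0.03, 0.04 and 0.04 in mutant E9.5 and -0.27, -0.17 and -0.32 in wild type E9.5. Zc3hav1, the zinc-finger antiviral protein, read 0.35, 0.43 and 0.54 in mutant E8.5 and 0.11, 0.01 and 0.16 in wild type E8.5. The median difference of this list at E9.5 was 0.02. The Trim30a call was lost in 4 of 6 cases when 1 array was left out (adjusted p up to 0.121), and the Zc3hav1 call in 1 of 6 (adjusted p = 0.0731). Of the 8 other settings, Trim30a was not called in 4 (processed signals, median centring, only the arrays compared and the deposited table, adjusted p from 0.0568 to 0.337). Zc3hav1 was not called in 3 (median centring, the mean of the kept probes and only the arrays compared, adjusted p from 0.0534 to 0.613).

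Of 14 genes of class I antigen presentation, which interferons also induce, 10 could be tested. H2-K1, a class I heavy chain, read -1.87, -1.78 and -1.83 in mutant E9.5 and -2.10, -2.12 and -2.24 in wild type E9.5 (0.33 ± 0.08, adjusted p = 0.046). Its call was lost whichever array was left out (adjusted p from 0.0878 to 0.175), and class I genes are a family of near-identical copies that a probe may not tell apart. No other gene of this list passed in a genotype comparison, and the peptide transporter genes Tap1 and Tap2 were above background on no array.

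Markers of the cells that a yolk sac preparation could hold were set beside these results. Of 20 macrophage and other myeloid markers 15 could be tested; at E9.5 3 fell in the mutant (Csf2rb, Csf2rb2 and Mpo) and none rose, and at E8.5 2 fell (Csf2rb and Csf2rb2), where 1.08% and 0.727% of all genes fell. Csf2rb, the common beta chain of the receptors for interleukin 3 and GM-CSF, differed by -1.06 ± 0.13 at E9.5 (adjusted p = 0.000371), and Mpo, the myeloperoxidase of granulocyte precursors, by -0.62 ± 0.10 (adjusted p = 0.00513). The E9.5 call of Csf2rb2 was lost with median centring (adjusted p = 0.0529). Averaged over the 15 genes, the log ratio relative to each gene's mean over all arrays ran from -0.15 to -0.04 in mutant E9.5 and from 0.03 to 0.17 in wild type E9.5, and from -0.12 to -0.05 in mutant E8.5 and from 0.02 to 0.09 in wild type E8.5. An average over the 12 markers other than Csf2rb, Csf2rb2 and Mpo was taken as well. It ran from -0.06 to 0.11 in mutant E9.5 and from 0.00 to 0.09 in wild type E9.5. At E8.5 it ran from -0.07 to -0.02 in mutant and from -0.08 to 0.03 in wild type, so that the groups overlapped. The 3 left out are the markers that were called, so this overlap follows in part from leaving them out. Of the 20 markers 11 were above background on all 12 arrays, the macrophage genes Csf1r, Cd68 and Mrc1 among them, while Adgre1 was on 4 and Spi1, Cx3cr1 and Elane were on none. The same average was taken over the 25 interferon-stimulated members that did not pass the filter through mutant E9.5 alone, called members included. It ran from 0.24 to 0.33 in mutant E9.5 and from -0.02 to 0.07 in wild type E9.5.

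None of 12 markers of maternal lymphocytes and natural killer cells could be tested, and 11 were above background on no array. None of the 14 visceral endoderm, 10 primitive erythroid, 9 trophoblast and decidua or 6 embryo proper markers tested passed in a genotype comparison. At E8.5, 3 of 11 endothelial markers (Cldn5, Sox7 and Sox17) and 3 of 12 mesoderm and mesenchyme markers (Col1a1, Col3a1 and Pdgfra) rose in the mutant, where 0.712% of all genes did. With median centring none of these 6 passed (adjusted p from 0.313 to 0.726). At E9.5 none of either list passed. The trophoblast and decidua average spread over the arrays of a group, from -0.29 to 0.55 in mutant E9.5 and from -0.43 to 0.49 in wild type E9.5 and the arrays high in Prl4a1 were those named above. At E9.5, 9 interferon-stimulated members were called without mutant replicate 3 and 8 without wild-type replicate 3. The part of these cell markers in the interferon-stimulated differences was not tested.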

How the data were processed

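RNA of 12 mouse yolk sacs or yolk sac pools was measured, 3 per group. Per the file headers, the authors scanned the arrays and read the spots by Feature Extraction 9.5.1.1 (Agilent). For each spot and channel the deposited files give mean and local background intensity, processed intensity, a log10 ratio and 0 or 1 flags. The deposited table of log2 ratios, centred on each probe's median, is the authors', and no source used here gives its filter.

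From the mean and background intensity, values were recomputed in R 4.3.3 with limma 3.58.1: normexp with an offset of 50, then loess with control spots at weight 0. The 6 spots more than 20 units below local background, and spots flagged as outliers, were set to missing. Probes above background in Cy5 on all 3 arrays of at least 1 group were kept (20065 of 41174), and the brightest kept probe stood for a gene. Gene names were taken from 23374 matched accessions, 6733 current and 2919 older symbols, and 8148 probes kept the array's name. Of 45018 spots 1639 were controls. A fit of 4 group means gave each comparison, with Benjamini-Hochberg adjustment over 13896 genes. P-values measure only the spread between these samples, and the number of arrays limits the precision.

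The members and all gene lists were chosen with earlier results of these data known. Values on every array were given for members called in a genotype comparison, the 8 largest called members in each stage comparison, and genes of other lists called in a genotype comparison, at most 5 a list. Values of other named genes were chosen for their role. The fit was tested on simulated data for the E9.5 genotype comparison with 200 of 13896 genes changed. It recovered 93% of genes changed by 0.5 and 98% of those changed by 1 on the log2 scale, with 10 false calls. The median standard error of that comparison was 0.0674, far under both sizes, so high recovery was foreseeable. The recovery of smaller changes was not tested.

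Replicate numbers coincide with the 3 scan times in the file headers, which name 2 slide barcodes. Of 18 same-numbered pairs across groups, 16 correlated above 0.1 in their deviations from the group means (r from -0.00719 to 0.42), and each of the 12 arrays correlated best with its own number. The alternatives were the processed signals, an offset of 10, median centring, no filter, the mean of kept probes, the replicate block, only the arrays compared, the deposited table, and leaving out each array.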

Additional observations from a re-analysis of the deposited data

How the results depend on the processing

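All 10 members that rose in the mutant at E9.5 had a difference above 0 under every alternative run. Of these 10, 5 kept the call with the processed signals, 0 with median centring, 6 with the deposited table, 9 with an offset of 10, with no filter and with only the arrays compared, and 8 to 10 with 1 array left out. With Ifit1, tested only through mutant E9.5, the members called were 6 with the processed signals and 7 with the deposited table. At E8.5 the 1 member called became 3 with the processed signals, 2 with an offset of 10, 0 with median centring, 4 with the deposited table and 1 to 3 with 1 array left out. Over all genes, 277 at E9.5 became 173 with the processed signals, 26 with median centring, 181 with the deposited table and 145 to 241 with 1 array left out. The 200 at E8.5 became 10 with median centring, 123 with only the arrays compared and 93 to 204 with 1 array left out. Between stages, median centring gave 1756 genes in the mutant in place of 2998 and 1458 in the wild type in place of 3308. It moved the median of all genes by 0.14 in the mutant and 0.11 in the wild type, and it called 21 members in the mutant, 20 of them shared with the 21 above (Ifi35 lost, Ifih1 gained), and 12 in the wild type, 9 of them shared (Ifi35, Irf1 and Irf9 lost; Ifit3, Irgm1 and Stat2 gained). The causes were not tested.

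With the replicate number, which is also the scan, as a replicate block, 10 members were again called at E9.5 and 1 at E8.5, and the interaction called 1 gene, no member, in place of 0. Leaving out 1 array gave 0 to 5 genes in the interaction, and 5 came without wild type E9.5 replicate 3. Some differences that had not passed changed sign. At E8.5 Ifit3 became -0.033 with median centring. Oas1a became 0.386 with the processed signals and with the deposited table, and ran from -0.06 to 0.001 with 1 array left out, the highest without mutant replicate 2. Oasl2 became -0.061 with median centring, -0.073 without mutant E8.5 replicate 3 and -0.041 without wild type E8.5 replicate 1. The interaction of Ifi27l2b ran from -0.188 to 0.034 with 1 array left out, at 0.034 without wild type E9.5 replicate 2 and 0.024 without wild type E8.5 replicate 2. With the processed signals and the deposited table, the interaction of Parp14 became -0.320 in place of 0.22 and that of Rtp4 -1.028 in place of 0.32. Signal close to background limits all dim members, whose fold changes depend on the offset.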
